A study of Mus musculus with 20 samples.

Results

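Day 7 of the conversion of XEN cells to iPS cells was compared with the starting XEN cells, 2 single-cell libraries on each side. The libraries were those labelled XEN at day 7 and at day 0, 4 of the 20 in the series. Cells with at least 500 genes and fewer than 5 UMIs (unique molecular identifiers, 1 for each captured RNA molecule) of the 3 fibroblast collagens Col1a1, Col1a2 and Col3a1 were kept. The collagen limit was set against fibroblast feeders and did not remove all feeder RNA, as given below. These limits left 13097 XEN cells (6942 and 6155 per library) and 8094 day 7 cells (2604 and 5490) of the 24817 deposited for these libraries, and 110725 cells in the whole series. Both groups are of the mouse line 3F-4 XEN, which is homozygous for 3 alleles. Its doxycycline-inducible cassette of Oct4, Klf4, Sox2 and mCherry is written Col1A1TetO-OKSmCh/TetO-OKSmCh, its transactivator at the Rosa26 locus R26M2rtTA/M2rtTA, and its GFP reporter of Oct4 Oct4-GFPTg/Tg. The starting XEN cells were kept for 7 days on mouse embryonic fibroblast feeders in the reprogramming medium (serum, LIF, ascorbic acid and a GSK3β inhibitor), but without doxycycline. Day 7 cells had been induced with doxycycline, sorted for mCherry and grown on the same feeders and medium with doxycycline. They were then sorted on SSEA-1 and Oct4-GFP into 4 subpopulations, which were put together in about equal parts, so a share of cells at day 7 is not that of the culture. The conversion and the starting cells are labelled as 1 line, the 2 libraries of each group were technical duplicates, and p-values here measure the spread between libraries, not between cultures. In the main fit that spread is pooled over all 20 libraries of the series, in 10 groups. A gene with close XEN and day 7 duplicates can thus go uncalled.

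XEN cells are stem cells of the extraembryonic endoderm, the lineage that arises from the primitive endoderm of the blastocyst and gives rise to the yolk sac. Gata4, Gata6 and Sox17 head their transcription factor network, and they secrete a laminin and collagen IV basement membrane. ES and iPS cells instead depend on Oct4 (gene Pou5f1), Sox2 and Nanog, and forced expression of Oct4, Klf4 and Sox2 can turn other cells into iPS cells.

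The 4 libraries held between 50518758 and 120619088 UMIs in the kept cells, with medians of 15016.5 and 18976 UMIs per cell in XEN and 18206.5 and 15509.5 at day 7. Markers of the labelled lineage were present on both sides. Summed over 10 XEN markers, the level was 12759 and 11789 CPM (a gene's UMIs scaled to a library total of 1000000) in XEN and 6541 and 8623 CPM at day 7, against 164 and 173 CPM in ES libraries. The 8 ES markers summed to 5.34 and 5.76 CPM in XEN and 3.61 and 27.5 CPM at day 7, against 2450 and 2083 CPM in ES. The ES libraries are of another line, grown in serum and LIF without doxycycline. It carries an inducible Gata4 with mCherry (Col1a1TetO-Gata4-mCherry/+), the transactivator (R26M2rtTA/+) and a Venus reporter of Gata6 (Gata6H2B-Venus/+). XEN and day 7 libraries carry different sequencing project numbers. Of the 2 groups day 7 alone was sorted and pooled. The study's methods give the stronger of 2 trypsin strengths for reprogramming cells and do not say which was used for the XEN libraries. Condition, run and sort thus cannot be told apart, nor can dissociation if it differed. All day 7 sums and folds below are those of the pooled sort, not of the culture. Feeder RNA was uneven: 296 cells of day 7 replicate 1, 11 of day 7 replicate 2 and 0 in either XEN library were over the collagen limit, and the collagens kept 9.57 CPM in day 7 replicate 1 and at most 0.294 CPM in the others. RNA of 4 Y-linked genes summed to 36.3 and 28.0 CPM in XEN and 6.77 and 15.2 CPM at day 7, and 25.96% and 25.6% of XEN cells held such a UMI against 5.34% and 10.2% of day 7 cells. Xist, the RNA that coats an inactive X, was at 0.514 and 0.203 CPM in XEN and 4.17 and 8.62 CPM at day 7 and rose by a log2 fold change of 4.16 ± 0.65 (standard error, as throughout; adjusted p = 4.54e-04, edgeR). Of 5 sex-linked genes tested 1 was called higher, Xist, and 0 lower, so no Y-linked gene was called. Xist alone had an unadjusted p under 0.05 (edgeR). With only the 4 libraries in the model 2 were called lower. In the main fit the 2 sides, labelled as 1 line, thus differed in Xist by a call and in Y-linked RNA by sums and cell shares only. Whether they also differ in karyotype or line was not tested, and for every fold below such a difference cannot be told apart from the induction. Counts below are also given for cells with a Y-linked UMI alone, a choice made after these values were seen. At day 7 those cells also carried feeder RNA, with 9 of 18 fibroblast markers higher than in XEN. That choice kept 2419084 and 8758481 UMIs in the day 7 libraries, so its fit has less depth. Ribosomal protein genes took 31.9% and 30.1% of UMIs in XEN and 36.3% and 36.0% at day 7. Cell barcodes shared between any 2 of the 4 libraries numbered 18 to 55, at most 1.23% of the smaller library.

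Of 16903 genes tested, 2103 were higher and 1008 lower at day 7 (a log2 fold change of 1 or more in size with an adjusted p under 0.05, from edgeR's quasi-likelihood test with Benjamini-Hochberg adjustment over all of them). That is 18.4% of the genes, 12.4% higher and 5.96% lower, and it is the background for the counts of group members below unless another choice of cells, libraries or test is named. The median log2 fold change was 0.003. The 4 libraries did not overlap between groups for 61.9% of genes. Of the 3111 calls, 777 higher and 362 lower ones were kept in each of 4 fits that left out 1 of these libraries. Without XEN replicate 1 there were 1805 calls and without day 7 replicate 2 there were 1798. In cells with a Y-linked UMI alone there were 2009. The background was 8.11% higher and 3.97% lower in those cells, 5.95% and 4.32% without XEN replicate 1, 8.18% and 4.77% without XEN replicate 2, 10.4% and 5.36% without day 7 replicate 1, 6.9% and 3.33% without day 7 replicate 2, 11.8% and 6.71% with a limit of 2 collagen UMIs, 13.2% and 6.06% with DESeq2, and 13.7% and 7.39% with only the 4 libraries in the model. Thinning each cell to 2000 UMIs before summing made it 9.86% and 5.2%, a model of the 10 conversion libraries 10.9% and 5.17%, and no collagen limit 12.8% and 4.84%. Differences between such counts were not tested.

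**Figure D1:**
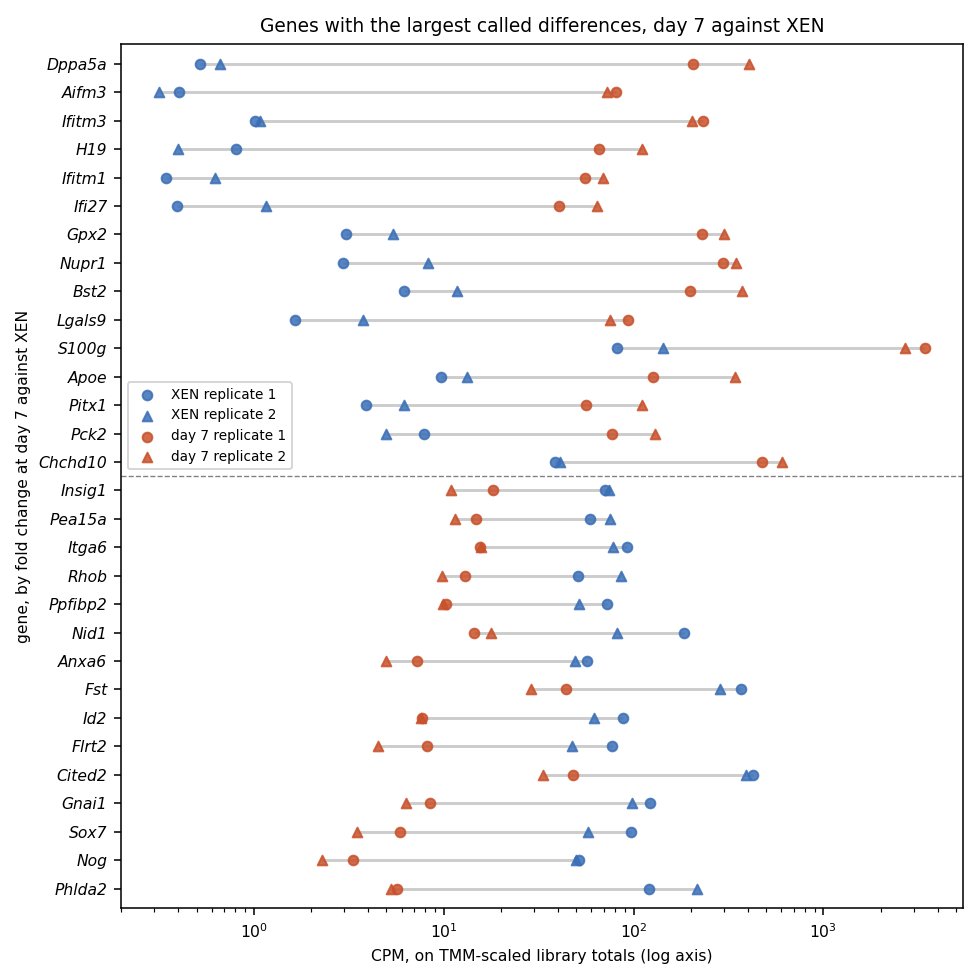
Level in CPM (log axis) in each of the 4 libraries for the 15 genes with the highest and the 15 with the lowest called log2 fold change at day 7, among those of at least 50 CPM in the higher group whose call was kept without any 1 library. Blue marks XEN and red day 7, circles replicate 1 and triangles replicate 2. In all 30, which were picked on these same libraries, the day 7 libraries lie beyond both XEN libraries, from 9.00 for Dppa5a to -4.94 for Phlda2.

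The genes of the cassette were read first, since the day 7 cells are the induced ones. Pou5f1 was at 0.636 and 0.751 CPM in XEN and 2.17 and 15.5 CPM at day 7. Both day 7 libraries lay above both XEN libraries, with a log2 fold change of 3.68 ± 0.76 (adjusted p = 0.00309, edgeR), but the day 7 duplicates were far apart and the call was lost without day 7 replicate 2 (adjusted p = 0.125). Day 7 cells had also been sorted on the GFP reporter of this gene and XEN cells had not, so this fold and its p depend on the sort. Klf4 was at 171 and 150.0 CPM in XEN and 110.4 and 103 CPM at day 7, lower at day 7 in both libraries and not called (-0.59 ± 0.26, adjusted p = 0.114). Sox2 was at 0.0655 and 0.106 CPM in XEN and 0.0448 and 0.269 CPM at day 7, with overlapping groups (1.04 ± 1.23, adjusted p = 0.57). Klf4 and Sox2 were thus not called higher at day 7. Whether reads from the 3′ end of the cassette's transcript were counted under these gene names is not given in the sources used here, and where they were, RNA of the cassette and of the endogenous genes cannot be told apart, so induction was not checked from these counts.

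Dppa5a, an RNA-binding protein of pluripotent cells, had the highest fold change of the called genes at 50 CPM or more. It was at 0.524 and 0.662 CPM in XEN and 205 and 406 CPM at day 7. Day 7 lay above XEN in both libraries, by a log2 fold change of 9.00 ± 0.43 (adjusted p = 2.33e-08). Aifm3, a mitochondrial oxidoreductase-like protein, was at 0.402 and 0.318 CPM in XEN and 80.7 and 72.8 CPM at day 7 (7.73 ± 0.49, adjusted p = 7.56e-07). The duplicates lay close to each other in that gene. H19, a long noncoding RNA expressed from the maternal allele, was at 0.804 and 0.397 CPM in XEN and 65.5 and 111 CPM at day 7 (7.20 ± 0.95, adjusted p = 1.45e-04). Gpx2, a glutathione peroxidase of epithelia, was at 3.07 and 5.42 CPM in XEN and 229 and 299 CPM at day 7 (5.96 ± 0.79), and S100g, a calcium-binding protein of absorptive epithelia, was at 82.1 and 142 CPM in XEN and 3424 and 2690.4 CPM at day 7 (4.77 ± 0.79). Both were well separated between the groups. Lgals9, a galectin that binds surface glycans, was at 1.65 and 3.75 CPM in XEN and 94 and 74.9 CPM at day 7 (4.96 ± 0.45). Pitx1, a homeodomain factor of hindlimb and pituitary, was at 3.9 and 6.22 CPM in XEN and 56.2 and 110.3 CPM at day 7 (4.04 ± 0.52). Chchd10, a protein of the mitochondrial intermembrane space, was at 38.4 and 41.1 CPM in XEN and 476 and 606 CPM at day 7 (3.77 ± 0.32). These 5 calls and those of Ifitm3, Ifitm1, Ifi27, Bst2, Nupr1, Apoe and Pck2, described with their groups, had an adjusted p of at most 7.05e-04 (edgeR). All 15 of the highest genes were called in cells with a Y-linked UMI alone (edgeR). There Dppa5a had a log2 fold change of 9.06 (adjusted p = 4.27e-05) and H19 of 7.69 (0.00248). The 15 were picked on all kept cells, which include those cells, so this is not a separate test.

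At the other end stood Phlda2, an imprinted gene that limits placental growth, at 121 and 216 CPM in XEN and 5.69 and 5.3 CPM at day 7. It fell by a log2 fold change of -4.94 ± 0.49 (adjusted p = 2.05e-05, edgeR). Nog, a secreted BMP antagonist, was at 51.6 and 49.7 CPM in XEN and 3.34 and 2.3 CPM at day 7 (-4.17 ± 0.80, adjusted p = 0.002). Sox7, an endoderm and endothelial transcription factor, was at 96.7 and 57.9 CPM in XEN and 5.87 and 3.5 CPM at day 7 (-4.05 ± 0.62, adjusted p = 3.93e-04). In all 3 genes each day 7 library was below each XEN library by a wide margin. Gnai1, an inhibitory G protein subunit, was at 123 and 97.8 CPM in XEN and 8.52 and 6.37 CPM at day 7 (-3.89 ± 0.40), and Cited2, a transcriptional co-regulator that binds CBP and p300, was at 426 and 393 CPM in XEN and 47.9 and 33.3 CPM at day 7 (-3.34 ± 0.29). Flrt2, a cell-surface guidance protein, was at 77 and 47.3 CPM in XEN and 8.16 and 4.5 CPM at day 7 (-3.30 ± 0.42). All 3 were also lower in both day 7 libraries. Itga6, the laminin-binding integrin subunit, was at 92.4 and 77.7 CPM in XEN and 15.5 and 15.7 CPM at day 7 (-2.45 ± 0.34). Anxa6, a membrane-binding annexin, was at 56.8 and 49.1 CPM in XEN and 7.2 and 4.98 CPM at day 7 (-3.12 ± 0.40), Rhob, a small GTPase of the endosome, at 51.2 and 86.4 CPM in XEN and 13 and 9.77 CPM at day 7 (-2.60 ± 0.32), and Ppfibp2, a liprin of cell contacts, at 72.1 and 51.3 CPM in XEN and 10.2 and 9.94 CPM at day 7 (-2.61 ± 0.29). Pea15a, a protein that holds ERK in the cytoplasm, was at 58.7 and 75.1 CPM in XEN and 14.8 and 11.4 CPM at day 7 (-2.35 ± 0.44). Adjusted p-values of these calls were at most 0.002 (edgeR). In cells with a Y-linked UMI alone 14 of the 15 were called, all but Pea15a (-1.43, adjusted p = 0.0681, edgeR). Phlda2 had a log2 fold change of -4.14 there (adjusted p = 7.08e-04). Those cells are part of the cells that these 15 were picked on, so this too is not a separate test.

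**Figure D2:**
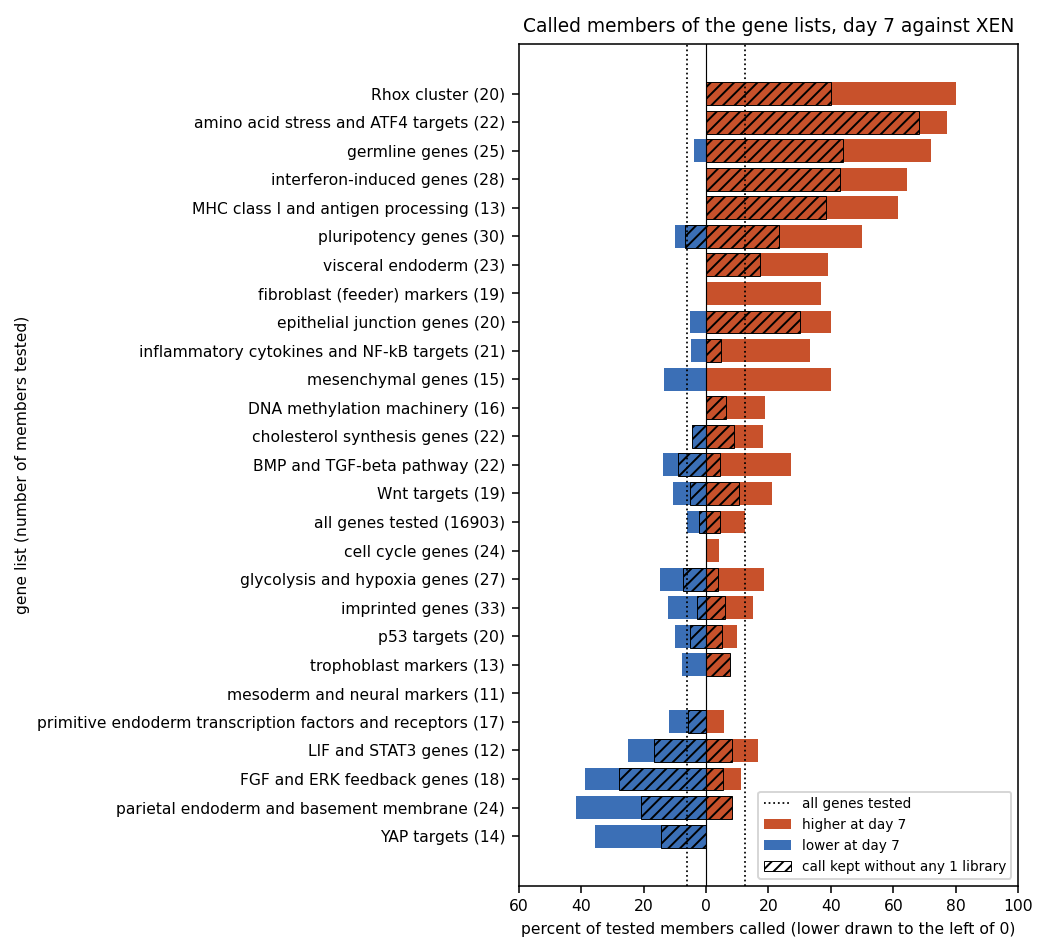
Percent of the tested members of each gene list called higher (red, right of 0) or lower (blue, drawn left of 0) at day 7 against XEN, for lists with at least 10 tested members, whose number stands in brackets. Hatching marks calls kept without any 1 of the 4 libraries and dotted lines the shares over all genes tested (12.4% higher, 5.96% lower); 17 of 22 amino acid stress genes were called higher and 10 of 24 parietal endoderm and basement membrane genes lower.

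Of 17 transcription factors and receptors of primitive endoderm, 1 was higher and 2 lower (5.88% and 11.8%, and 4 lower by DESeq2 or with a model of only the 4 libraries), with a median log2 fold change of -0.68 beside 0.003 for all genes. Gata4 was at 198 and 193 CPM in XEN and 76.3 and 62.8 CPM at day 7 and Gata6 at 298 and 223 CPM in XEN and 82 and 76.9 CPM at day 7. Both were lower in each day 7 library than in each XEN library and neither was called (-1.49 ± 0.59, adjusted p = 0.075, and -1.71 ± 0.77, adjusted p = 0.116, edgeR). The spread in this test is that of all 20 libraries, not of these 4 alone. Sox17 was at 283 and 273 CPM in XEN and 117 and 262 CPM at day 7, near the XEN level in 1 day 7 library only (-0.55 ± 0.84, adjusted p = 0.675). Pdgfra, the PDGF receptor of this lineage, was at 123 and 72.2 CPM in XEN and 48.2 and 63.3 CPM at day 7 (-0.81 ± 0.34, adjusted p = 0.0994). Dab2, an endocytic adaptor, was at 259 and 171 CPM in XEN and 134 and 134 CPM at day 7 (-0.68 ± 0.43, adjusted p = 0.264). Beside Sox7, the calls were Fgfr2, an FGF receptor, at 3.61 and 3.41 CPM in XEN and 1.82 and 1.6 CPM at day 7 (-1.04 ± 0.35), which was lost in each leave-one-out fit (adjusted p up to 0.17, without day 7 replicate 2), and Amn, the membrane partner of cubilin, at 0.14 and 0.141 CPM in XEN and 0.74 and 3.66 CPM at day 7 (3.98 ± 0.93), which was kept only without day 7 replicate 1. Each fit without 1 library called 1 lower, and 1 higher only without day 7 replicate 1, and Y-linked UMI cells gave 1 higher and 1 lower.

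Among basement membrane and parietal endoderm genes, most calls were lower. Of 24 tested, 10 were lower and 2 higher, with a median of -1.08, and 7 of the 12 calls were kept without any 1 library (6 lower without XEN replicate 1). Lamc1, the laminin γ1 chain, was at 1426 and 1041 CPM in XEN and 432 and 343 CPM at day 7 (-1.67 ± 0.31, adjusted p = 0.0017, edgeR). Nid1, nidogen, which links laminin to collagen IV, was at 183 and 82.2 CPM in XEN and 14.5 and 17.7 CPM at day 7 (-3.04 ± 0.34, adjusted p = 5.03e-05). Plod2, a collagen lysyl hydroxylase, was at 545 and 376 CPM in XEN and 92.1 and 126 CPM at day 7 (-2.08 ± 0.31, adjusted p = 3.12e-04). In each of them the groups were apart. Fst, follistatin, a secreted activin antagonist, was at 369.6 and 285 CPM in XEN and 43.9 and 28.7 CPM at day 7 (-3.17 ± 0.53, adjusted p = 7.78e-04). Lamb1, the laminin β1 chain, was at 751 and 599 CPM in XEN and 222 and 272 CPM at day 7 (-1.45 ± 0.37, adjusted p = 0.0103), a call lost without XEN replicate 1 (0.0633) or day 7 replicate 1 (0.072). Col4a1, the collagen IV α1 chain, was at 3463.9 and 2486.3 CPM in XEN and 1309.4 and 1178.9 CPM at day 7 (-1.26 ± 0.39, adjusted p = 0.0271) and was called without XEN replicate 2 but not without any of the other 3 (0.144, 0.0829 and 0.126). The 2 higher members were Krt19, an epithelial keratin, at 1.1 and 2.46 CPM in XEN and 22.5 and 31.3 CPM at day 7 (3.92 ± 0.74), and Fbln1, fibulin 1, at 4.31 and 3.29 CPM in XEN and 29.6 and 52.3 CPM at day 7 (3.43 ± 0.34). The fit of cells with a Y-linked UMI gave other counts: 12 of the 24 were lower and 2 higher, with a median of -1.35.

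Of 23 visceral endoderm genes tested, 9 were higher and 0 lower (1 lower when the model held only the 4 libraries), with a median log2 fold change of 1.60, and 4 of the 9 calls were kept without any 1 library (6 and 4 higher without XEN replicate 1 or 2, 5 without day 7 replicate 2). Apoe, an apolipoprotein, was at 9.7 and 13.3 CPM in XEN and 127 and 343 CPM at day 7 (4.35 ± 0.47, adjusted p = 3.34e-05, edgeR). Apoa2, another apolipoprotein, was at 5.82 and 5.93 CPM in XEN and 31.2 and 56.3 CPM at day 7 (2.90 ± 0.49, adjusted p = 8.82e-04). Dkk1, a secreted Wnt antagonist of the anterior visceral endoderm, was at 26.5 and 37.1 CPM in XEN and 205 and 200.4 CPM at day 7 (2.67 ± 0.74, adjusted p = 0.016), and this call was lost without XEN replicate 1, XEN replicate 2 or day 7 replicate 2 (0.137, 0.0686 and 0.061). Ihh, a hedgehog ligand, was at 10.5 and 7.66 CPM in XEN and 27.2 and 28.9 CPM at day 7 (1.62 ± 0.51, adjusted p = 0.0304) and was lost without any 1 of the libraries. All 4 genes were higher in both day 7 libraries. Spink1, a secreted trypsin inhibitor named after its values were seen, was the other way, at 739.7 and 517 CPM in XEN and 85.3 and 109.7 CPM at day 7, and was not called (-2.69 ± 1.02, adjusted p = 0.0656). From cells with a Y-linked UMI the counts were 4 higher and 1 lower.

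Of 30 pluripotency genes tested, 15 were higher and 3 lower, with a median log2 fold change of 2.38. This count rested in part on 1 library: 25 of its 30 members were higher in day 7 replicate 2 than in replicate 1, and without replicate 2 the calls were 7 higher and 4 lower and the median 0.03. Either XEN library mattered as well, with 8 higher without replicate 1 and 8 without replicate 2, and thinned cells gave 9 higher and 3 lower. Of the 15 higher calls 7 were kept without any 1 library. Beside Dppa5a these included Cdh1, E-cadherin, at 4.05 and 6.05 CPM in XEN and 27.5 and 25.4 CPM at day 7 (2.39 ± 0.34, adjusted p = 2.69e-04, edgeR), and Zfp296, a zinc finger factor, at 0.916 and 1.49 CPM in XEN and 4.13 and 8.28 CPM at day 7 (2.37 ± 0.39, adjusted p = 7.17e-04). Klf5, a Krüppel-like factor, was at 78.3 and 48.8 CPM in XEN and 89.9 and 271 CPM at day 7 (1.51 ± 0.50, adjusted p = 0.0378), and its call was kept only without day 7 replicate 1. The lower members included Sall4, a factor shared by ES and XEN cells, at 198 and 180.1 CPM in XEN and 51.9 and 49.7 CPM at day 7 (-1.90 ± 0.23, adjusted p = 8.04e-05), and Klf2, another Krüppel-like factor, at 17 and 28.3 CPM in XEN and 2.42 and 1.94 CPM at day 7 (-3.38 ± 0.60, adjusted p = 0.00114). Lin28a, which blocks let-7 processing, was at 67.7 and 56.2 CPM in XEN and 30.2 and 26.4 CPM at day 7 (-1.13 ± 0.30, adjusted p = 0.0132) and was lost without XEN replicate 1 (0.0689) or day 7 replicate 2 (0.0805). Nanog, a core pluripotency factor, was at 0 and 0.0795 CPM in XEN and 0.0673 and 0.648 CPM at day 7 (3.25 ± 1.23, adjusted p = 0.0656), and Zfp42, also known as Rex1, at 1.85 and 1.34 CPM in XEN and 0.874 and 5.2 CPM at day 7 (0.96 ± 0.51, adjusted p = 0.189). Neither was called, and both had their highest value in day 7 replicate 2. Among cells with a Y-linked UMI the counts were 8 higher and 3 lower.

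Interferon-induced genes, when called, rose. These are genes that type I and II interferons switch on through STAT and IRF factors, and many restrict viruses. Of 28 tested, 18 were higher and 0 lower, beside 12.4% higher among all genes, with a median log2 fold change of 4.10 (3.58 with a member at 0 in XEN set to its lower bound), and 12 calls were kept without any 1 library (12 higher without XEN replicate 1). Ifitm3, a membrane protein that blocks viral fusion, was at 1.02 and 1.08 CPM in XEN and 232 and 204 CPM at day 7 (7.70 ± 0.58, adjusted p = 1.98e-06, edgeR). Bst2, tetherin, which holds budding virus at the membrane, was at 6.22 and 11.7 CPM in XEN and 198 and 374 CPM at day 7 (5.00 ± 0.57, adjusted p = 5.07e-05). Ifitm1, of the same family, was at 0.346 and 0.627 CPM in XEN and 55.7 and 68.9 CPM at day 7 (6.99 ± 1.14, adjusted p = 6.57e-04). In each of these the lowest day 7 library was far above the highest XEN library. Ifitm2 was at 8.25 and 16.2 CPM in XEN and 163 and 89.6 CPM at day 7 (3.37 ± 0.43, adjusted p = 1.20e-04), and Ifi27 at 0.393 and 1.17 CPM in XEN and 40.6 and 63.9 CPM at day 7 (6.06 ± 0.85, adjusted p = 2.29e-04). Ifitm1, Ifitm2 and Ifitm3 are near neighbours of similar sequence (chr7:140967221-140969825, chr7:140954837-140955987 and chr7:141009586-141010770, GRCm38), so reads shared among them make the split between the 3 uncertain. Without day 7 replicate 1 the count was again 18 higher and 0 lower, and 14 of the 18 calls had their higher value in replicate 2. The part of feeder RNA in these calls was not tested. Restricted to cells with a Y-linked UMI, 14 of the 28 were higher and 1 lower.

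Promoter sequences are shown for this group because its members share a known element. In windows from 250 bases before to 50 bases after the start site (RefSeq, GRCm38.p6), 2 copies of the letters GAAA set 2 bases apart, the core of the interferon-stimulated response element, were searched on both strands. Of the 23 listed genes with a window, 14 held a match (60.9%), against 3.99% of the windows of all 27025 genes. The match was in 9 of 15 members that rose and in 5 of 8 that were not called. The windows of the 2 members with the highest day 7 level among those that hold it, rose and were kept without any 1 library follow, 5′ to 3′ with matches in capitals (in Bst2 they overlap).
Bst2 (chr8:71537423-71537722, minus strand): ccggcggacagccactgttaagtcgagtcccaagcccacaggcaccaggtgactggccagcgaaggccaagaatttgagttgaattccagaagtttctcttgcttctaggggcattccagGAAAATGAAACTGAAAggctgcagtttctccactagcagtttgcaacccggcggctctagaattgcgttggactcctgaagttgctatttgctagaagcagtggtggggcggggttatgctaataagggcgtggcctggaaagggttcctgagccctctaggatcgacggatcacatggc
Ifitm3 (chr7:141010695-141010994, minus strand): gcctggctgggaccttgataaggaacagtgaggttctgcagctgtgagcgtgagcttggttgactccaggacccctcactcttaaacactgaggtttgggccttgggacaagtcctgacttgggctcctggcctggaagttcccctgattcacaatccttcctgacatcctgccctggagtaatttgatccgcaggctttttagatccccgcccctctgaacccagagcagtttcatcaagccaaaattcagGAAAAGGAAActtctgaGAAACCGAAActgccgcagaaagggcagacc

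MHC class I and antigen processing genes, which present peptides at the cell surface, followed. Of 13 tested, 8 were higher and 0 lower, with a median log2 fold change of 2.17, and 5 calls were kept without any 1 library (5 higher without XEN replicate 1, and 3 higher of 11 in thinned cells). H2-K1, a classical class I heavy chain, was at 7.75 and 11.6 CPM in XEN and 78.4 and 146 CPM at day 7 (3.54 ± 0.57, adjusted p = 5.61e-04, edgeR). H2-D1, the other such chain, was at 34.8 and 36.8 CPM in XEN and 97.8 and 150.0 CPM at day 7 (1.79 ± 0.36, adjusted p = 0.00279). Erap1, a peptide-trimming enzyme, was at 0.281 and 0.141 CPM in XEN and 1.17 and 1.08 CPM at day 7 (2.40 ± 0.49, adjusted p = 0.00281). All 3 were higher in both day 7 libraries. Tap1, a subunit of the peptide transporter, was at 0.15 and 0.424 CPM in XEN and 2.53 and 1.96 CPM at day 7 (2.96 ± 0.61, adjusted p = 0.00322) and was lost without XEN replicate 1 (0.0517). The heavy chains are near-copies of each other, so their split is uncertain too. Only 2 of the 13 were higher, and 0 lower, among cells with a Y-linked UMI.

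Targets of ATF4 were the list with the highest number of calls kept without any 1 library. ATF4 is the transcription factor that cells use under amino acid shortage or stress of the endoplasmic reticulum, and its targets make and import amino acids. Of 22 tested, 17 were higher and 0 lower, with a median log2 fold change of 2.00. For all 22 the day 7 libraries did not overlap XEN, against 61.9% of all genes, and 15 of the 17 calls were kept without any 1 library. Nupr1, a small stress-induced chromatin protein, was at 2.96 and 8.26 CPM in XEN and 297 and 348 CPM at day 7 (5.84 ± 0.68, adjusted p = 6.28e-05, edgeR). Pck2, the mitochondrial PEP carboxykinase, was at 7.91 and 4.98 CPM in XEN and 77.1 and 130.0 CPM at day 7 (4.01 ± 0.45, adjusted p = 5.12e-05). Slc3a2, the heavy chain of amino acid exchangers, was at 105 and 93.9 CPM in XEN and 252 and 434 CPM at day 7 (1.79 ± 0.26, adjusted p = 2.81e-04). All 3 were higher in both day 7 libraries. Psph, which makes serine, was at 66.9 and 74.1 CPM in XEN and 232 and 249.6 CPM at day 7 (1.77 ± 0.28, adjusted p = 4.93e-04), and Mthfd2, a mitochondrial folate enzyme, was at 111 and 86.6 CPM in XEN and 317 and 320.0 CPM at day 7 (1.69 ± 0.36, adjusted p = 0.00398). With cells restricted to those with a Y-linked UMI, 17 of the 22 were again higher and 0 lower, with a median of 2.22.

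The letters TGATGNAA, the core of the composite element that ATF4 binds with C/EBP factors, were searched in the same windows on both strands. They were in 8 of the 20 listed genes with a window (40.0%), against 4.51% of all genes. All 8 were among the 16 members that rose, and 0 of the 4 that were not called held it. The windows of Nupr1 and of Asns, asparagine synthetase, were taken by the rule used for Bst2 and Ifitm3, and show the match on the minus strand in the first and on the plus strand in the second. Asns was chosen for its window after its values were seen.
Nupr1 (chr7:126625421-126625720, minus strand): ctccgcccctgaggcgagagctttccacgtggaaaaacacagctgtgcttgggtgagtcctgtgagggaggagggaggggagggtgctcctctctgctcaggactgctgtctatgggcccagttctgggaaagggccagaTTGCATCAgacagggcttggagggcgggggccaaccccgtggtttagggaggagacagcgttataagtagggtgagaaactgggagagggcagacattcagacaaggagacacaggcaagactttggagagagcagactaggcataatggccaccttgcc
Asns (chr6:7693160-7693459, minus strand): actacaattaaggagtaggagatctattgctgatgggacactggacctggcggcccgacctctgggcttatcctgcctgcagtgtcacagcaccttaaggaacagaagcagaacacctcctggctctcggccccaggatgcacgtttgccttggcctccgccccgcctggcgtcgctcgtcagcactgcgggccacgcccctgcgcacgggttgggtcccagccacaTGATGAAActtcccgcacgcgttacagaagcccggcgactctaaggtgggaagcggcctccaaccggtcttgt

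Germline genes, silenced by promoter DNA methylation in somatic cells, were mostly near 0 in XEN. Of 25 tested, 18 were higher and 1 lower at day 7 (9 higher of 22 in thinned cells), and 11 of the higher calls were kept without any 1 library. The median log2 fold change was 4.06, or 3.83 without day 7 replicate 2. With Tex11, at 0 in XEN, set to its lower bound it was 3.94. Sycp2, among the 25, had 0 UMIs in all 4 libraries. Tdrd1 had 0 UMIs in XEN and 1 and 2 at day 7. Fkbp6, an immunophilin of the meiotic and piRNA pathway, was at 0.0187 and 0.0177 CPM in XEN and 2.62 and 3.64 CPM at day 7 (7.32 ± 0.60, adjusted p = 5.17e-06, edgeR). Dpep3, a dipeptidase of the testis, was at 0.0281 and 0.0265 CPM in XEN and 1.46 and 3.38 CPM at day 7 (6.40 ± 0.97, adjusted p = 3.92e-04). Taf7l, a testis form of a TFIID subunit, was at 0.0935 and 0.0707 CPM in XEN and 1.03 and 2.59 CPM at day 7 (4.45 ± 0.97, adjusted p = 0.00422). All 3 stayed at a few CPM at day 7. Tex19.1, a protein that limits retrotransposons, was at 2.09 and 2.15 CPM in XEN and 16.7 and 13.3 CPM at day 7 (2.82 ± 0.57, adjusted p = 0.00267), and so had a measurable level before induction. The lower member was Dnd1, an RNA-binding protein of germ cells, at 0.888 and 0.689 CPM in XEN and 0.179 and 0.391 CPM at day 7 (-1.41 ± 0.46, adjusted p = 0.0346), a call kept only without day 7 replicate 2. The listed genes summed to 5.93 and 6.75 CPM in XEN and 29.4 and 34.8 CPM at day 7. Cells with a Y-linked UMI gave 3 higher and 1 lower of 25, with a median of 2.54.

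The E-box CACGTG, which reads the same on both strands, was in 11 of the 22 windows of the germline list (50%), against 8.09% of all genes. Among members that rose it was in 8 of 16, and among the others in 3 of 6. GCGGGAA, an E2F-type motif, was in 7 of the 22 (31.8%), against 5.29% of all genes, searched on both strands. Windows of Fkbp6 and Taf7l, again by the same rule, are shown for the E-box, which Fkbp6 holds at 2 places.
Fkbp6 (chr5:135349995-135350294, minus strand): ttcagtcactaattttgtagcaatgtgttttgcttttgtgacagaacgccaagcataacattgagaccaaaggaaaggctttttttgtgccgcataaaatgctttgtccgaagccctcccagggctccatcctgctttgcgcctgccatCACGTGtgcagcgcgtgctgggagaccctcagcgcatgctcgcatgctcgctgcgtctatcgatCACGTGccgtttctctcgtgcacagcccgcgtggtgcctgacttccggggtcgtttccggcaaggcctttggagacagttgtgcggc
Taf7l (chrX:134476441-134476740, minus strand): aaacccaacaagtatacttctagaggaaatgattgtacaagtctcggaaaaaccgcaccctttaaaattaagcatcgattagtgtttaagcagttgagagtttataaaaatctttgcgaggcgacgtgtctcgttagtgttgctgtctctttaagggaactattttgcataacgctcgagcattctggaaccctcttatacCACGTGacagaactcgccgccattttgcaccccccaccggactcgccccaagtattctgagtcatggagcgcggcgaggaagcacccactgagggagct

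The Rhox homeobox genes of the X chromosome, which are expressed in placenta and germ line, gave 16 higher and 0 lower of 20 tested, with a median log2 fold change of 3.46 and 8 calls kept without any 1 library (9 higher of 22 without XEN replicate 1, and 7 higher of 13 in thinned cells, with a median of 2.61). Rhox6 was at 15.3 and 18.3 CPM in XEN and 85.6 and 123 CPM at day 7 (2.63 ± 0.49, adjusted p = 0.00165, edgeR). Rhox9 was at 0.103 and 0.15 CPM in XEN and 16.5 and 49.8 CPM at day 7 (8.01 ± 0.75, adjusted p = 1.30e-05). Rhox1 was at 1.06 and 0.945 CPM in XEN and 15.5 and 8.66 CPM at day 7 (3.59 ± 0.65, adjusted p = 0.00133), and Rhox2a at 3.17 and 2.1 CPM in XEN and 13.9 and 17.6 CPM at day 7 (2.58 ± 0.62, adjusted p = 0.00837), whose call was lost without XEN replicate 2 (0.076) or day 7 replicate 2 (0.0519). All 4 were higher in both day 7 libraries, and they are members of a cluster of near-copies, so the counts of single paralogs are uncertain. Y-linked UMI cells gave 5 higher and 0 lower of 19. The DNA methylation machinery itself gave 3 higher and 0 lower of 16, with a median of -0.14, against 1 higher without XEN replicate 1 or day 7 replicate 2, 2 without XEN replicate 2, and 2 higher and 1 lower in Y-linked UMI cells. Gadd45a and Gadd45g, stress-induced proteins linked to DNA demethylation, were at 8.29 and 16 CPM in XEN and 38.8 and 50.3 CPM at day 7 (1.88 ± 0.32) and at 29.7 and 45.6 CPM in XEN and 87.9 and 111 CPM at day 7 (1.40 ± 0.38). The second call was lost without XEN replicate 1 (0.165) or day 7 replicate 2 (0.118). The maintenance methyltransferase Dnmt1 was at 63.5 and 59.8 CPM in XEN and 44.5 and 41.9 CPM at day 7 and was not called (-0.51 ± 0.18, adjusted p = 0.0509).

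Of 33 imprinted genes, which are expressed from 1 parental allele, 5 were higher and 4 lower (15.2% and 12.1%), with a median log2 fold change of 0.14, and 2 higher and 1 lower call were kept without any 1 library. The balance turned on single libraries, with 2 higher and 4 lower without XEN replicate 1, 3 and 1 without XEN replicate 2, 4 and 2 without day 7 replicate 1, and 5 and 2 without day 7 replicate 2, and it was 7 and 2 in Y-linked UMI cells and 3 and 4 in thinned cells. Phlda2 and H19, described above, both lie on distal chromosome 7 (Phlda2 at chr7:143501545-143503150 and H19 at chr7:142575529-142578143, GRCm38), as do Igf2, a fetal growth factor (chr7:142650766-142666816), and Cdkn1c, a cell cycle inhibitor (chr7:143458339-143461050). Igf2 was at 0 and 0.0353 CPM in XEN and 1.86 and 1.53 CPM at day 7 (6.43 ± 1.60, adjusted p = 0.00955, edgeR), a call lost without XEN replicate 1 (0.0935). Cdkn1c was at 0.365 and 0.247 CPM in XEN and 2.26 and 3.67 CPM at day 7 (3.28 ± 0.66, adjusted p = 0.00267). Of these 4 neighbours, 3 rose and Phlda2 fell. Ddc, which makes dopamine and serotonin, was at 37.8 and 56.3 CPM in XEN and 17.8 and 14.6 CPM at day 7 (-1.54 ± 0.41, adjusted p = 0.0139) and was lost without XEN replicate 2 (0.098) or day 7 replicate 2 (0.0956).

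LIF signals through the receptor Lifr and its partner Il6st (gp130) to STAT3. Lifr was at 127 and 123 CPM in XEN and 28.2 and 22.9 CPM at day 7 (-2.29 ± 0.27, adjusted p = 7.42e-05, edgeR) and Il6st at 25.4 and 18.5 CPM in XEN and 8.99 and 8.98 CPM at day 7 (-1.29 ± 0.25, adjusted p = 0.0022). Both receptor chains were lower in each day 7 library. Bcl3, an NF-kB co-regulator that STAT3 can induce, was at 0.486 and 0.397 CPM in XEN and 4.87 and 8.18 CPM at day 7 (3.89 ± 0.30, adjusted p = 2.90e-06), and Cish, a feedback inhibitor of cytokine receptors, was at 13.9 and 15.9 CPM in XEN and 3.21 and 8.49 CPM at day 7 (-1.34 ± 0.46), a call kept only without day 7 replicate 2. In all, 2 of 12 LIF and STAT3 genes were higher and 3 lower, with a median of -0.08, and 1 higher and 2 lower calls were kept without any 1 library. Without XEN replicate 1 the counts were 1 and 2, without XEN replicate 2 or day 7 replicate 1 2 and 2, without day 7 replicate 2 1 and 3, and in Y-linked UMI cells 3 and 2.

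Genes of FGF and ERK feedback gave 7 lower and 2 higher of 18 tested, with a median log2 fold change of -0.75. Fgf3, an FGF ligand, was at 55.2 and 39 CPM in XEN and 3.79 and 1.36 CPM at day 7 (-4.22 ± 0.82, adjusted p = 0.00209, edgeR). Fgfr3, a receptor, was at 12.4 and 12.7 CPM in XEN and 1.35 and 2.48 CPM at day 7 (-2.70 ± 0.50, adjusted p = 0.00158). Dusp4, a phosphatase that ERK induces, was at 14.2 and 34.9 CPM in XEN and 4.33 and 5.33 CPM at day 7 (-2.34 ± 0.40, adjusted p = 9.11e-04). These 3 were lower in each day 7 library and were called without any 1 library. Spry1, a feedback inhibitor of receptor tyrosine kinases, went up instead, at 0.346 and 1.69 CPM in XEN and 9.33 and 8.5 CPM at day 7 (3.13 ± 0.58, adjusted p = 0.00155), and Egr1, an immediate early gene, was at 0.907 and 3.15 CPM in XEN and 9.15 and 17.3 CPM at day 7 (2.70 ± 0.87, adjusted p = 0.0328), a call lost without XEN replicate 1 (0.239) or day 7 replicate 2 (0.194). Counts were 4 lower and 2 higher in cells with a Y-linked UMI.

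In the BMP and TGF-beta pathway 6 of 22 were higher and 3 lower, and only 1 higher and 2 lower calls were kept without any 1 library. The higher count turned on single libraries, with 1 higher and 2 lower without XEN replicate 1, 2 and 2 without XEN replicate 2, 3 and 2 without day 7 replicate 1, and 4 and 3 without day 7 replicate 2. Y-linked UMI cells gave 6 and 3. Nog, described above, and Id2, a helix-loop-helix inhibitor that BMP induces, fell, the second at 88 and 61.7 CPM in XEN and 7.67 and 7.57 CPM at day 7 (-3.30 ± 0.32, adjusted p = 1.61e-05, edgeR). Id1 and Id3, listed too and named after their values were seen, were higher in both day 7 libraries and not called. Id1 was at 11.6 and 25.3 CPM in XEN and 31.9 and 48.6 CPM at day 7 (1.13 ± 0.45, adjusted p = 0.0798, edgeR). Id3 was at 10.9 and 22.5 CPM in XEN and 23.1 and 26.3 CPM at day 7 (0.56 ± 0.41, adjusted p = 0.334, edgeR). Smad7, an inhibitory SMAD, was at 38.6 and 40.9 CPM in XEN and 13.9 and 20.1 CPM at day 7 (-1.22 ± 0.36, adjusted p = 0.0215), a call kept only without day 7 replicate 2. Grem1 and Inhba, genes that fibroblasts also express, had their highest level in day 7 replicate 1. Grem1, a BMP antagonist, was at 0 and 0 CPM in XEN and 6.34 and 0.208 CPM at day 7, and Inhba, an activin subunit, at 0.0187 and 0.00883 CPM in XEN and 3.03 and 0.11 CPM at day 7. Their calls were kept only without day 7 replicate 2, and without replicate 1 the adjusted p was 0.105 and 0.25. Replicate 1 also held the most feeder collagen, whose part in these calls was not tested.

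Targets of canonical Wnt signalling, which the GSK3β inhibitor in both media mimics, gave 4 higher and 2 lower of 19, and 2 higher and 1 lower call were kept without any 1 library. The median log2 fold change was 1.31, and 0.60 without day 7 replicate 1. Only 1 was lower without XEN replicate 1, day 7 replicate 1 or day 7 replicate 2, and Y-linked UMI cells gave 6 higher and 0 lower. Axin2, a negative feedback gene, was at 1.88 and 0.565 CPM in XEN and 4.98 and 5.82 CPM at day 7 (2.15 ± 0.44, adjusted p = 0.00289, edgeR), and Znrf3, a ligase that removes Wnt receptors, was at 4.66 and 4.07 CPM in XEN and 12 and 9.72 CPM at day 7 (1.31 ± 0.25, adjusted p = 0.00187). Tcf7, a Wnt-responsive HMG factor, was at 0.683 and 1.23 CPM in XEN and 3.79 and 3.51 CPM at day 7 (1.93 ± 0.49, adjusted p = 0.0109), a call lost without XEN replicate 1 (0.127). The 3 genes were higher in each day 7 library. The lower members were Fgf20 and Nkd1, both under 1 CPM. Fgf20 was at 0.524 and 0.442 CPM in XEN and 0 and 0.0122 CPM at day 7 (-5.72 ± 1.23, adjusted p = 0.00391, edgeR), a call kept without any 1 library. Nkd1 was at 0.72 and 0.38 CPM in XEN and 0.0897 and 0.0611 CPM at day 7 (-2.89 ± 0.86, adjusted p = 0.0233). That call was lost without XEN replicate 1 or either day 7 library. YAP targets, which respond to cell tension and density, gave 0 higher and 5 lower of 14, with a median of -0.91, of which 2 calls were kept without any 1 library. There were 2 lower without XEN replicate 2 and 2 without day 7 replicate 2, 7 in Y-linked UMI cells and 3 in thinned cells. Amotl2, an angiomotin that restrains YAP, was at 125 and 137 CPM in XEN and 44.3 and 37.9 CPM at day 7 (-1.67 ± 0.21, adjusted p = 9.99e-05), and Ptpn14, a phosphatase that does so too, was at 107 and 108 CPM in XEN and 47 and 49.2 CPM at day 7 (-1.16 ± 0.24, adjusted p = 0.00347). CTGF, a secreted matrix protein, was at 500.4 and 434 CPM in XEN and 172 and 181 CPM at day 7 (-1.40 ± 0.48, adjusted p = 0.0441), and this call was lost without any 1 of the libraries. Of 8 AP-1 members 0 were called at day 7 (edgeR, with 1 at an unadjusted p under 0.05) and 0 by DESeq2. There was 1 higher in Y-linked UMI cells, 2 with a model of the 10 conversion libraries and 3 with only the 4 libraries in the model. Jun was at 66.4 and 83.4 CPM in XEN and 127 and 176 CPM at day 7 (1.02 ± 0.60, adjusted p = 0.233) and Atf3 at 107 and 206 CPM in XEN and 81.2 and 81.8 CPM at day 7 (-0.94 ± 0.53, adjusted p = 0.21). Fos, Fosb and Junb, named after their values were seen, also lay above XEN in both day 7 libraries. Fos was at 17.3 and 21.9 CPM in XEN and 61.5 and 79.6 CPM at day 7 (1.85 ± 1.20, adjusted p = 0.278, edgeR). Fosb had a log2 fold change of 1.99 ± 1.56 and Junb of 0.69 ± 0.29. Fosl2, like Atf3, lay below XEN in both (-0.86 ± 0.50), and Fosl1 and Jund overlapped XEN.

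**Figure D3:**
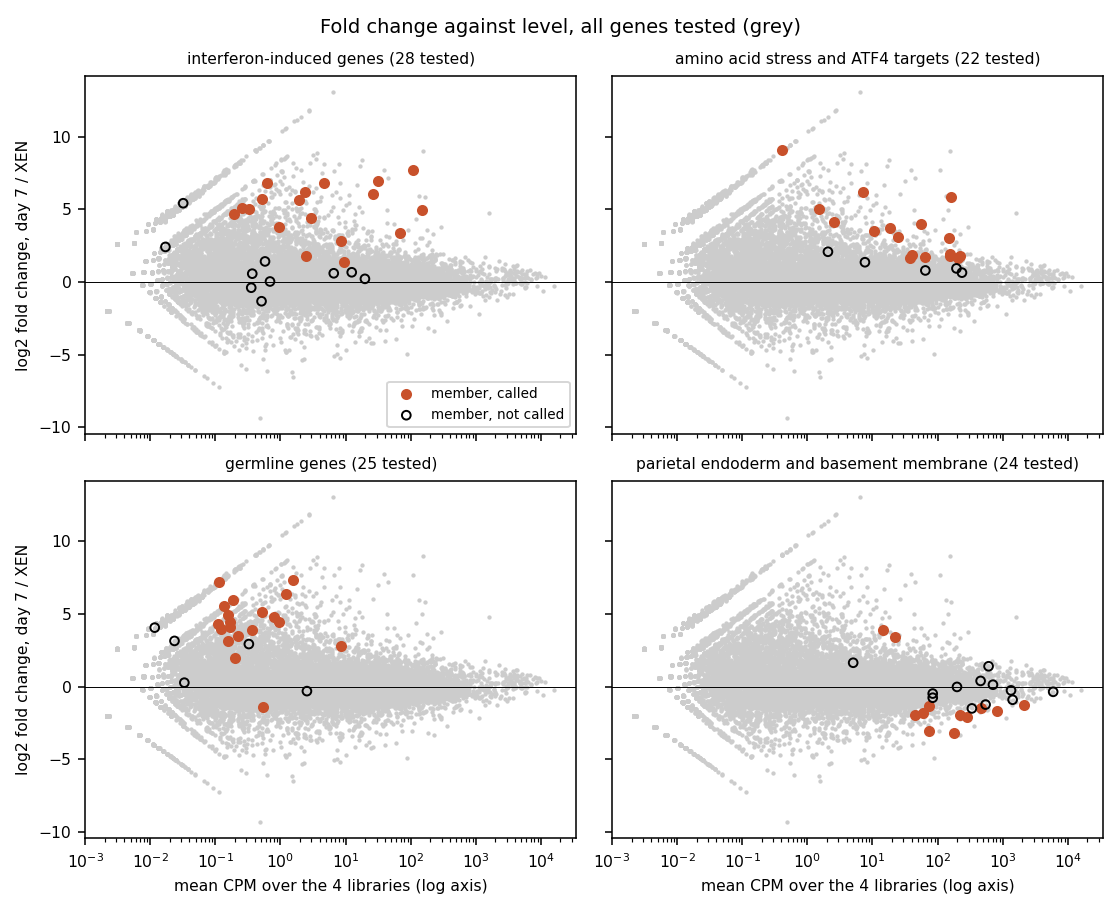
Log2 fold change at day 7 against XEN (vertical axis) by mean CPM over the 4 libraries (horizontal, log axis) for all 16903 genes tested (grey) and for the members of 4 lists, called (red) or not (open). The lists are interferon-induced genes, ATF4 targets, germline genes, and parietal endoderm and basement membrane; called members lie above 0 in the first 3, except 1 germline gene, and below 0 in the fourth, except 2.

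Epithelial junction genes gave 8 higher and 1 lower of 20, with a median log2 fold change of 1.55 and 6 higher calls kept without any 1 library. Spint1 and Spint2, membrane inhibitors of serine proteases, were at 5.58 and 9.55 CPM in XEN and 24.1 and 45 CPM at day 7 (2.19 ± 0.32, adjusted p = 2.96e-04, edgeR) and at 75.7 and 127 CPM in XEN and 315 and 464 CPM at day 7 (1.94 ± 0.42, adjusted p = 0.00427). Cldn7, a tight junction claudin, was at 16.3 and 29.9 CPM in XEN and 69.9 and 146 CPM at day 7 (2.22 ± 0.60, adjusted p = 0.0142). All were higher in both day 7 libraries, but the calls of Spint2 and Cldn7 were lost without XEN replicate 1 (0.0737 and 0.147) or day 7 replicate 2 (0.053 and 0.157). Dsp, desmoplakin, was lower, at 13.7 and 27.1 CPM in XEN and 7.02 and 6.95 CPM at day 7 (-1.55 ± 0.40), a call kept only without XEN replicate 1. Y-linked UMI cells gave 7 higher and 0 lower.

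Mesenchymal genes gave 6 higher and 2 lower of 15, and 0 of these calls were kept without any 1 library. They were 0 higher and 0 lower without XEN replicate 1, 0 and 2 without XEN replicate 2, 1 and 1 without day 7 replicate 1, and 5 and 1 without day 7 replicate 2. The lower ones were Snai1 and Zeb1. Snai1, a repressor of Cdh1, was at 94.3 and 48.8 CPM in XEN and 14.2 and 22.7 CPM at day 7 (-1.95 ± 0.45, adjusted p = 0.00601, edgeR), lost without XEN replicate 1 (0.073) or day 7 replicate 1 (0.0582). Zeb1, another, was at 6.86 and 4.79 CPM in XEN and 2.4 and 0.917 CPM at day 7 (-1.84 ± 0.51, adjusted p = 0.0175), lost without XEN replicate 1 (0.0911) or day 7 replicate 2 (0.155). Fn1, fibronectin, was at 5 and 6.8 CPM in XEN and 39.1 and 18.8 CPM at day 7 (2.29 ± 0.66, adjusted p = 0.0199), and was kept only without day 7 replicate 2 (0.133 without replicate 1). Day 7 replicate 1 also held the feeder markers: of 19 fibroblast genes tested 7 were higher and 0 lower, and each of the 19 was higher in day 7 replicate 1 than in replicate 2. Their median log2 fold change was 2.70, against -0.11 without day 7 replicate 1 and 3.88 without day 7 replicate 2. Summed over the 20 listed, they were at 81.2 and 208 CPM in XEN and 361 and 77.4 CPM at day 7, and 7 of the 20 were at 0 in XEN. The XEN libraries had 0 cells over the collagen limit, so this sum does not measure feeder RNA alone. With a limit of 2 collagen UMIs per cell 3 mesenchymal genes were higher and 2 lower, with Y-linked UMI cells 6 and 1, and with thinned cells 2 and 1.

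Inflammatory genes gave 7 higher and 1 lower of 21, with 1 call kept without any 1 library. There was 1 higher without XEN replicate 1 and 1 without XEN replicate 2, 4 without day 7 replicate 1 and 3 without day 7 replicate 2, with 0 lower in each, and Y-linked UMI cells gave 3 higher and 1 lower. Thinned cells gave 4 higher and 0 lower of 19. The kept call was Icam1, a leukocyte adhesion molecule, at 1.02 and 1.71 CPM in XEN and 9.57 and 15.5 CPM at day 7 (3.20 ± 0.52, adjusted p = 6.34e-04, edgeR). Cxcl2, a neutrophil chemokine, was at 0 and 0 CPM in XEN and 10.8 and 0.0245 CPM at day 7. Its RNA was thus nearly all in day 7 replicate 1, where 8 feeder markers summed to 13.3 CPM, against 0.526 CPM in replicate 2. The part of feeder RNA in this call was not tested. The Cxcl2 call was kept only without day 7 replicate 2.

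Of 24 cell cycle genes 1 was higher and 0 lower (0 and 4 without XEN replicate 2, 1 and 1 without day 7 replicate 1, 0 and 0 without day 7 replicate 2 and in Y-linked UMI cells). It was Ccnb2, a mitotic cyclin, at 40.6 and 36.4 CPM in XEN and 67 and 95.1 CPM at day 7 (1.08 ± 0.19, adjusted p = 9.33e-04, edgeR). Without XEN replicate 2 or day 7 replicate 2 its log2 fold change was under the limit of 1, at the lowest 0.73 without day 7 replicate 2, with adjusted p-values of 0.0147 and 0.0279. The proliferation genes Top2a and Birc5 were at 251 and 141 CPM in XEN and 111 and 124 CPM at day 7 (-0.74 ± 0.29) and at 341 and 344 CPM in XEN and 228 and 192 CPM at day 7 (-0.71 ± 0.28), and neither was called. Of 20 p53 targets 2 were higher and 2 lower, and 1 call in each direction was kept without any 1 library. This balance turned on single libraries, with 1 higher and 5 lower without XEN replicate 1, 2 and 1 without XEN replicate 2, 1 and 2 without day 7 replicate 1, and 1 and 1 without day 7 replicate 2. Y-linked UMI cells gave 1 and 2. Pmaip1, the BH3 protein Noxa, was at 5.48 and 7.09 CPM in XEN and 21.7 and 26.6 CPM at day 7 (1.94 ± 0.22, adjusted p = 5.64e-05), and Eda2r, a TNF receptor family member, at 28.6 and 30.5 CPM in XEN and 11.1 and 8.95 CPM at day 7 (-1.56 ± 0.24, adjusted p = 4.78e-04). The cell cycle inhibitors Cdkn1a and Cdkn2a were at 344 and 561 CPM in XEN and 366 and 364 CPM at day 7 (-0.31 ± 0.31, adjusted p = 0.49) and at 108 and 141 CPM in XEN and 134 and 147 CPM at day 7 (0.17 ± 0.35, adjusted p = 0.756), with overlapping groups.

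Glycolysis and hypoxia genes gave 5 higher and 4 lower of 27, and 1 higher and 2 lower calls were kept without any 1 library. The balance turned on single libraries, with 2 higher and 3 lower without XEN replicate 1, 2 and 2 without XEN replicate 2, 4 and 2 without day 7 replicate 1, and 1 and 5 without day 7 replicate 2. Y-linked UMI cells gave 4 and 3. Slc2a3, a glucose transporter, was at 345 and 631 CPM in XEN and 72.9 and 131 CPM at day 7 (-2.26 ± 0.31, adjusted p = 2.10e-04, edgeR), and Ankrd37, a hypoxia-induced gene, at 31.1 and 34.3 CPM in XEN and 2 and 5.05 CPM at day 7 (-3.20 ± 0.65, adjusted p = 0.00282). Pfkp, a phosphofructokinase, rose, at 0.196 and 0.115 CPM in XEN and 1.19 and 0.978 CPM at day 7 (2.78 ± 0.50, adjusted p = 0.00122). Both directions thus occurred among calls kept without any 1 library. Cholesterol synthesis genes gave 4 higher and 1 lower of 22, with 2 higher without XEN replicate 1, without XEN replicate 2 or without day 7 replicate 2, and 1 higher and 1 lower in Y-linked UMI cells. The lower one was Insig1, which retains SREBP in the endoplasmic reticulum, at 70.5 and 73.9 CPM in XEN and 18.3 and 10.9 CPM at day 7 (-2.31 ± 0.42, adjusted p = 0.00135), and Nsdhl, a sterol dehydrogenase, was at 4.79 and 3.72 CPM in XEN and 12.8 and 13.6 CPM at day 7 (1.64 ± 0.34, adjusted p = 0.00338). Of 8 glycosyltransferases that build or mask SSEA-1, the sort's marker, 1 was higher and 1 lower, as in Y-linked UMI cells, and 0 were higher without XEN replicate 2. St3gal4, a sialyltransferase, was at 21.4 and 17.5 CPM in XEN and 4.57 and 6.1 CPM at day 7 (-1.86 ± 0.35, adjusted p = 0.00178).

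Trophoblast genes, which summed to 65.7 and 75.3 CPM in XEN and 75.9 and 60.3 CPM at day 7, gave 1 higher and 1 lower of 13 (0 lower in each fit without 1 library, 2 higher without XEN replicate 2, and 2 higher and 1 lower of 14 in Y-linked UMI cells), the higher one Gata2 at 0.309 and 0.344 CPM in XEN and 4.21 and 3.29 CPM at day 7 (3.51 ± 0.60, adjusted p = 8.85e-04, edgeR). Of 11 mesoderm and neural genes edgeR called 0 (2 at an unadjusted p under 0.05), while DESeq2 called 1 lower and the fit without day 7 replicate 1 called 2 lower. Of 7 genes of 2-cell-like cells edgeR called 0 (0 at that p), and DESeq2 called 1 lower of 11 it tested. Of 4 metallothioneins both called 0 (0 at that p). Y-linked UMI cells gave 0 in these 3 lists. The 5 defining 2-cell-like markers had 0 UMIs at day 7.

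The library sums do not tell fewer cells of a type from less RNA per cell, so cells with at least 1 UMI were also counted, after each was thinned to 2000 UMIs to equal the depth. Cells below that depth, 234 and 359 in XEN and 162 and 178 at day 7, were left out. Dppa5a was seen in 0.0745% and 0.155% of XEN cells and in 15.6% and 17.3% of day 7 cells, against 95.7% and 95.6% of ES cells. Its unthinned share at day 7 was 37.8% and 37.5%. Most thinned day 7 cells thus had no UMI of it. Ifitm3 was seen in 0.224% and 0.207% of XEN cells and in 24.4% and 20.8% of day 7 cells. Pou5f1 was seen in 0.134% and 0.104% of XEN cells and in 0.409% and 2.45% of day 7 cells, 10 and 130 cells in number, against 63.6% and 55.4% of ES cells. Before thinning it was in 0.980% and 1.36% of XEN cells and in 2.88% and 7.65% of day 7 cells. Part of the pooled day 7 cells had been sorted as positive for the GFP reporter of this gene. How that relates to these shares was not tested. Sox2 was in 0 of 2442 thinned cells of day 7 replicate 1. The share with a UMI at this depth could thus be up to 0.123% by a floor of 3 cells and 0.151% by the exact interval. Before thinning Sox2 was in 0.0768% of the cells of that library. Among the endoderm factors Gata4 was seen in 31.5% and 29.0% of XEN cells and in 11.8% and 11.01% of day 7 cells. Before thinning it was in 86.6% and 82.6% of XEN cells and in 58.1% and 54.9% of day 7 cells, so most day 7 cells held it. Sox17 was seen in 40.5% and 37.7% of XEN cells and in 17.7% and 36.5% of day 7 cells, again with the duplicates apart. Phlda2 went from 17.5% and 25.5% of XEN cells to 0.778% and 0.885% of day 7 cells. ES cells, which should lack them and whose line carries an inducible Gata4 that was not induced, had Gata4 and Sox17 in at most 0.0403% of cells.

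**Figure D4:**
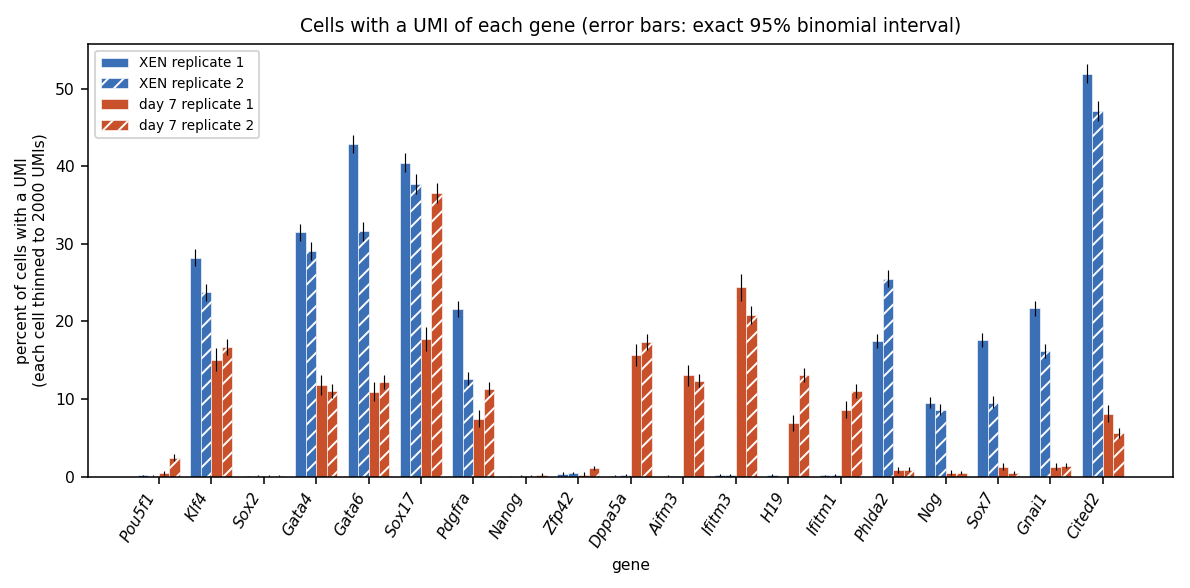
Percent of cells with at least 1 UMI of each gene after thinning each cell to 2000 UMIs, in the XEN (blue) and day 7 (red) libraries, hatched for replicate 2, with exact 95% binomial intervals that cover counting error only. Dppa5a lies at most at 0.155% in XEN and at 15.6% and 17.3% at day 7, and Cited2 at 51.9% and 47.1% in XEN and 8.11% and 5.59% at day 7.

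Libraries of later times show where the day 7 levels stood along the conversion. These comparisons share the XEN libraries, so levels are given with no test. Day 14 and day 28 cells were sorted and pooled in the same way as day 7 cells. Of the 30 genes with the highest and lowest folds, 29 lay beyond XEN at day 14 and 28 at day 28. Pitx1 and Nid1 were exceptions. At day 14 Pitx1 was at 26.2 and 79.2 CPM, and by day 28 it overlapped XEN, at 11.2 and 5.57 CPM. Nid1 was at 94.7 and 67 CPM and then 65.6 and 99.2 CPM, and overlapped XEN at both times. Dppa5a at day 14 was at 665 and 634 CPM, and by day 28 at 2882 and 2842 CPM, so its level was higher at each later time. Pou5f1 was at 14.3 and 24.5 CPM and then 82.5 and 106 CPM. H19 was at 66.1 and 152 CPM and then 30.8 and 19.5 CPM, below its day 7 level by day 28. Gata4 was at 99.4 and 98.8 CPM and then 69.5 and 62.8 CPM, and so was still below XEN. Day 28 carries the sequencing project number of XEN, unlike day 7.

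**Figure D5:**
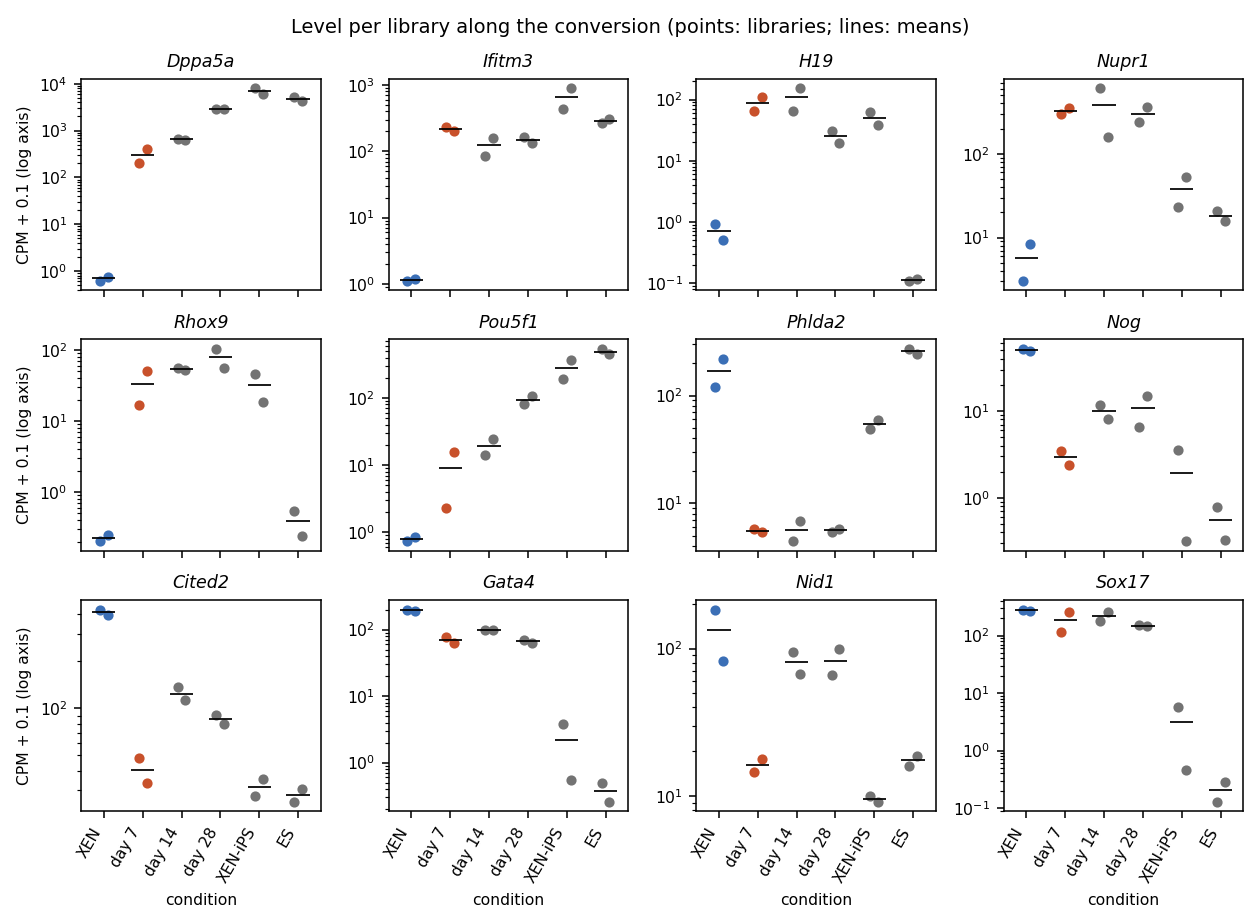
CPM plus 0.1 (log axis) in each library of XEN, day 7, day 14, day 28, XEN-derived iPS and ES cells for 12 genes, with points for libraries and lines for means. Dppa5a climbs from 0.524 and 0.662 CPM in XEN through 205 and 406 CPM on day 7 to 2882 and 2842 CPM on day 28, while Phlda2 stays between 4.37 and 6.83 CPM from day 7 to day 28.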

How the data were processed

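Single-cell libraries (Chromium 3′, technical duplicates) were processed by the authors with SEQC on GRCm38/mm10, which aligned reads, corrected barcodes and UMIs and removed cells of low complexity or high mitochondrial share. The deposited values are whole UMI counts per cell and gene; the SEQC version and annotation are not given in the sources used here. Cells were kept with at least 500 genes and fewer than 5 UMIs of the 3 feeder collagens, and UMIs were summed per library. A gene without a column in a library was set to 0. The sums of all 20 libraries (10 groups, 10 residual degrees of freedom) were fitted with edgeR 4.0.16 (TMM scaling, filterByExpr, quasi-likelihood test, Benjamini-Hochberg adjustment). The code was run on counts simulated from this fit's own means and dispersions, with planted changes. Those counts held no run, sort or feeder effect, so that run cannot show how the test behaves under them. CPM values are on the TMM-scaled totals. A group at 0 was bounded with 3 UMIs over its libraries where the other group had more than 3 UMIs. DESeq2 1.42.0 was an alternative. Scrublet called at most 0.154% of cells, so its calls were not used and no doublets were removed. Coordinates came from GENCODE M21, which matched 22012 of 22936 genes.

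Named genes were the 15 highest and 15 lowest called log2 fold changes at 50 CPM or more in the higher group whose call was kept without any 1 library, the cassette genes with Gata4, Gata6, Sox17, Pdgfra, Nanog and Zfp42, and up to 4 called members of each of 34 lists in each direction by level (2 not called where few were). Not all are printed. The genes compared, the lists and the tests were chosen with earlier results of these data known. Binomial intervals and floors cover counting error only.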

Additional observations from a re-analysis of the deposited data

How the results depend on the processing

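The counts of 3111 calls, 2103 higher and 1008 lower, kept within 1.5 times under another scaling (RLE, 3117 calls), DESeq2 (3270), no filter on low counts (3239), only the 4 libraries (2929) or the 10 of the conversion (2596) in the model, no feeder limit (3002), a limit of 2 collagen UMIs (3118) and at least 1000 genes per cell (3126). With cells thinned to 2000 UMIs the higher calls numbered 1373. Counts of several lists also moved by over 1.5 times, and the following are examples. With the 10 libraries mesenchymal and inflammatory genes gave 3 higher each, AP-1 members 2 and fibroblast markers 4. With only the 4 libraries mesenchymal genes gave 3 higher, inflammatory genes 4, trophoblast genes 3 and fibroblast markers 1. Trophoblast genes gave 3 higher with DESeq2, and fibroblast markers 4 higher with a limit of 2 collagen UMIs. Primitive endoderm factors gave 5 lower with no filter on low counts. With no feeder limit YAP targets gave 3 lower and fibroblast markers 12 higher. Leaving out 1 library gave 1798 to 2811 calls, 1046 to 1852 higher and 585 to 959 lower; the lowest count of calls came without day 7 replicate 2 and the next, 1805, without XEN replicate 1. Where 1 library of a group was left, it was assumed to vary like the other groups. Chosen after seeing the data, leaving out the 5% of cells with most UMIs gave 3151 calls, and cells with a Y-linked UMI alone gave 2009, 1349 higher and 660 lower, and shared 51.7% of the 3111 calls; the cause was not tested, though fewer cells and UMIs entered. The planned removal of called doublets was not run, because the caller marked too few cells. Replicate numbers did not pair the libraries (correlation of deviations -0.163 over 7082 genes): with the replicate block there were 3027 calls, or 2622 with only the 4 libraries, and 3293 with the numbers crossed.

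Of the 173 named genes, those that changed sign under some setting were not called at day 7, except Lefty2 and Relb, whose calls were kept only without day 7 replicate 1. Cells with a Y-linked UMI gave log2 fold changes of -1.12 for Sox2, 0.52 for B4galt5, 0.58 for Ncam1 and 1.20 for Eif2s3y. Ncam1 was at 0.69 with no feeder limit. Over the fits that left out 1 library, log2 fold changes ran from -0.99 to 1.62 for Sox2, -0.93 to 1.70 for Zfp42, -2.83 to 6.58 for Lefty2, -0.32 to 2.45 for Relb, -0.69 to 0.085 for Cdkn1a, -0.078 to 0.38 for Cdkn2a and -0.43 to 1.48 for Mt1. The lowest values of the first 4 came without day 7 replicate 2. The cause was not tested. Of the 143 named genes that were called, 51, 45, 34 and 40 lost the call without XEN replicate 1, XEN replicate 2, day 7 replicate 1 and day 7 replicate 2.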
